A study of Homo sapiens with 12 samples.

Results

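The accessible chromatin of HCT116 cells carrying CDX1 alone was compared with that of HCT116 cells carrying an empty vector (EV), over every region of the ATAC-seq count table except the 3 regions on the exons of CDX1 itself, which hold reads from the introduced copy. This left 30167 of 30170 regions, of which 30151 passed the filter on low values (at least 1 library with a CPM, or counts scaled to the library total, of 3 or more). ATAC-seq lets a transposase cut open DNA, so the number of reads in a region measures how accessible it is. HCT116 is an established, poorly differentiated human colorectal carcinoma cell line. CDX1 cells were made by retroviral transduction with a vector that also encodes GFP, and the GFP-positive population was sorted. EV cells were made by plasmid transfection and selection of geneticin-resistant clones. Each line gave 3 libraries of untreated cells, and the 6 further libraries of the series came from EHF cells (transfected plasmid, geneticin) and from EHF+CDX1 cells (the CDX1 line transfected with EHF). No library of cells with an empty retrovirus was analysed here, so the CDX1 protein and the way the line was made cannot be told apart. The labels do not say that the 3 libraries of a line were separate cultures, and the p-values then measure only the spread between these libraries.

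CDX1 is a caudal-type homeobox transcription factor. With its relative CDX2 it sets intestinal identity along the gut and acts on genes of absorptive cells such as VIL1, which encodes the brush border protein villin, and CDH17, which encodes an intestinal cadherin. CDX proteins bind AT-rich DNA with the core TTTATG or TTTATT. Where such a factor opens chromatin, counts rise at its binding sites, often away from promoters. The comparison asked what CDX1 alone, without EHF, did to accessibility, in which direction, where, and how large a change the counts still allow.

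The introduced gene was examined first. Over the 3 left-out regions, the CDX1 libraries held 544606, 524981 and 1916479 counts and the EV libraries 96, 18 and 35, which matches the labels. Counts outside these regions, EHF exons and matches to mitochondrial DNA were 171387 to 399447 in CDX1 and 147971 to 311033 in EV libraries, and the median region held 2 to 9 counts in each library, so single regions were measured with wide errors. Matches to mitochondrial DNA took 63.8% ± 5.43 of the counts outside CDX1 and EHF exons in CDX1 cells and 69.6% ± 4.41 in EV cells (mean ± SD, n = 3; two-sided exact permutation test, p = 0.3, where 0.1 is the smallest p that 3 against 3 allows). Epithelial markers were accessible in both lines, with regions at 7 of 8 genes, among them EPCAM (15, 51 and 19 counts in CDX1, 21, 32 and 14 in EV). Of 10 markers of blood, stromal and endothelial cells, 6 had a region. Their summed scaled counts ran from 20.7 to 27.9 CPM in CDX1 and from 18.04 to 26.3 CPM in EV libraries. CD3E, PECAM1 and VWF were among those without a region.

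No region was called different between CDX1 and EV cells in the main fit of all 12 libraries, and alternative fits called 0 to 3, as given at the end. With edgeR's quasi-likelihood test and Benjamini-Hochberg adjustment, 0 of 30151 regions reached an adjusted p under 0.05 (0% called), and the smallest adjusted p was 0.256. DESeq2 also called 0, with 677 regions at an unadjusted p under 0.05. By edgeR, at an unadjusted p under 0.05 there were 1147 regions. Of these, 589 were higher (1.95% of the regions tested) and 558 lower (1.85%), and the median log2 fold change over all regions was 0. The split between directions depended on single libraries and on scaling: it was 576 higher and 757 lower without CDX1 replicate 2, 830 and 575 without EV replicate 2, and 15 and 917 with scaling to the library total, which includes the CDX1 exon counts and moved the median to -0.65. In the edgeR fit with TMM scaling, 34.4% of the 1620 regions with a mean of 20 counts or more were above 0. Their median was -0.17, and 10 were higher and 44 lower at an unadjusted p under 0.05. Of the 1620, 1466 lay outside EHF exons and matches to mitochondrial DNA, so these values are not those of nuclear regions alone. The 189 tested matches to mitochondrial DNA held a median of mean counts of 420. Their median log2 fold change was -0.46, with 0 higher and 17 lower at an unadjusted p under 0.05. In the same fit 773 regions were called in EHF+CDX1 against EV, 1308 in EHF+CDX1 against EHF and 3 in EHF against EV. Both larger numbers involve the EHF+CDX1 libraries. Outside CDX1 and EHF exons and matches to mitochondrial DNA these held 374877, 912168 and 253569 counts. Whether depth plays a part in the number of calls was not tested. The 3 regions on CDX1 exons had log2 fold changes of 13.78 to 14.29 but adjusted p of 0.172 to 0.312 in this fit, so this fit did not call even that difference. When the 6 CDX1 and EV libraries were fitted alone, 2 of the 3 CDX1 exon regions were called, and DESeq2 called all 3. The fit of the 6 libraries also called 2 regions elsewhere, a CPQ intron and a match to mitochondrial DNA.

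**Figure D1:**
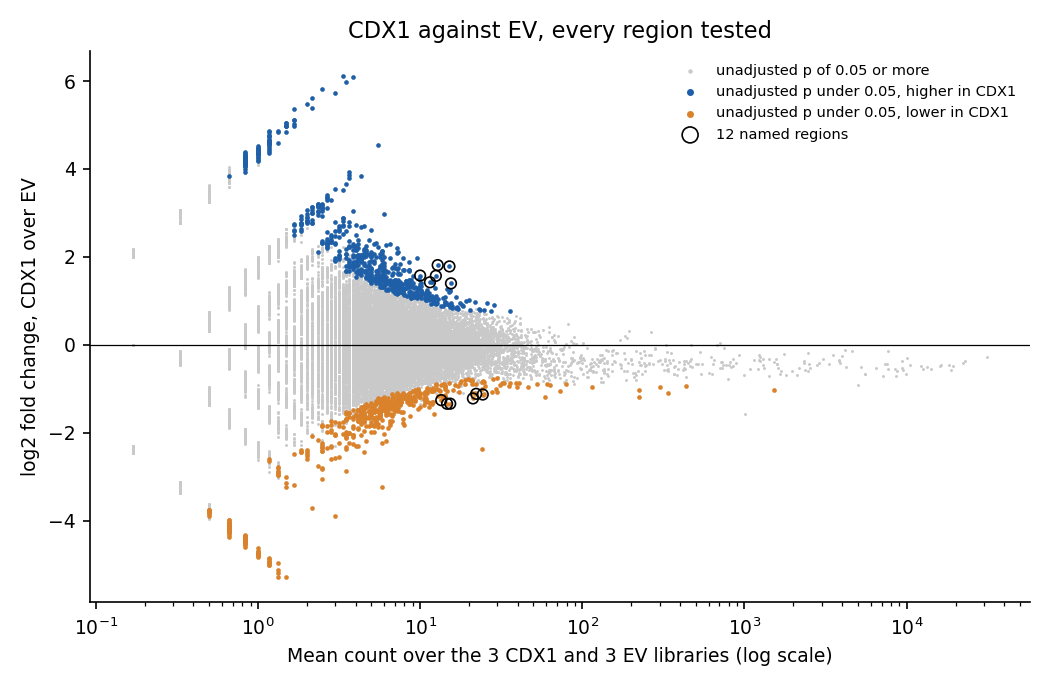
Each point is 1 of 30151 regions, with its mean count over the 3 CDX1 and 3 EV libraries on a log axis and its log2 fold change (CDX1 over EV) on the vertical axis; blue and orange mark unadjusted p under 0.05, and circles mark the 12 regions described one by one. The cloud is centred on 0 and narrows as the count rises. The high-count regions to the right lie mostly below 0. Of the 1620 with a mean of 20 counts or more, 1466 are neither matches to mitochondrial DNA nor EHF exons.

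How large a change the counts of a region allow is given by the 95% interval of its fold change. This is not a limit of what would be called after adjustment, since even the CDX1 exon regions went uncalled in this fit. Over all regions the median half-width of the 95% interval was 2.47-fold. Both bounds lay within 2-fold for 1576 regions (5.23%), within 4-fold for 17316 (57.4%) and within 8-fold for 24145 (80.1%). A 4-fold increase lay outside the interval of 21677 regions (71.9%), and a 4-fold decrease outside that of 22130 (73.4%). These shares are of all regions tested; the interval was given to the 28907 regions with a count in both lines.

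The depth of a region set this limit. Among the 14123 regions with a mean under 5 counts, 22.7% had an interval within 4-fold. The share was 82.7% of the 10219 regions with 5 to 10 counts, 97.1% of the 4189 with 10 to 20 counts and 98.3% of the 1620 with 20 counts or more. Even in the last class 37.4% had an interval within 2-fold, so for most regions the interval still held a 2-fold difference. Of 13939 regions at most 1 kb from an annotated transcription start, 82.4% had an upper bound under 4-fold, against 62.9% of the 16212 regions farther away, where enhancers lie.

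Summing the counts of neighbouring regions narrowed the limits. Sums over the regions within 5 kb of each protein-coding start site gave 10716 genes, of which 0 were called (0%), 171 were higher at an unadjusted p under 0.05 (1.6%) and 183 lower (1.71%). Both bounds lay within 2-fold for 3106 genes (29.0%) and within 4-fold for 9307 (86.9%). Sums over 1 Mb bins gave 2828 bins, of which 0 were called (0%), 45 were higher at an unadjusted p under 0.05 (1.59%) and 30 lower (1.06%). Both bounds lay within 2-fold for 1918 bins (67.8%).

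**Figure D2:**
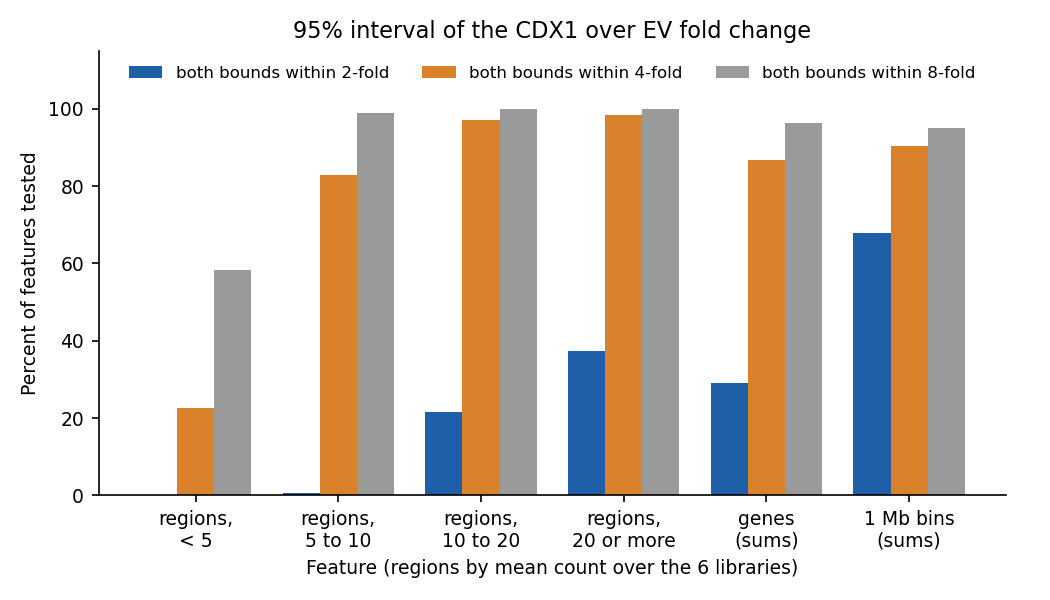
Bars give the percent of features whose 95% interval of the CDX1 over EV fold change lies within 2-fold (blue), 4-fold (orange) and 8-fold (grey), for regions split by mean count over the 6 libraries and for sums over genes and 1 Mb bins. The 4-fold bars climb from 22.7% in the lowest count class to 98.3% in the highest, while the 2-fold bar reaches 37.4% there and 67.8% in the bins.

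The regions that came nearest to a call are described next, with 4 of their sequences, since they show what the strongest candidates look like. They are the 6 higher and 6 lower regions of smallest unadjusted p among those with a mean of at least 10 counts, no overlap between the lines in TMM-scaled CPM, and no place on exons of CDX1 or EHF or in matches to mitochondrial DNA. Groups without overlap were common, with 1485 regions higher (4.93%) and 1172 lower (3.89%) of all tested, and 475 of the 5645 regions eligible by depth and place. The sequences are from hg38, read 5′ to 3′ on the plus strand, with any TTTATG or TTTATT on either strand in capitals. Coordinates are those of the deposited table. The VIL1 region is shown with them because VIL1 is on both the list of study markers and that of CDX targets. The PLK4 and CDX2 regions overlap untranslated exons and are named only.
Near DCDC2, chr6:24359871-24360063: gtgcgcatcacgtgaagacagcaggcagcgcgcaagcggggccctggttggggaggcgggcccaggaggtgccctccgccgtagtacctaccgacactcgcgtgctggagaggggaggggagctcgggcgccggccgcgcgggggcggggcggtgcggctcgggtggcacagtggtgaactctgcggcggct
LINC02763 intron, chr11:112613679-112613895: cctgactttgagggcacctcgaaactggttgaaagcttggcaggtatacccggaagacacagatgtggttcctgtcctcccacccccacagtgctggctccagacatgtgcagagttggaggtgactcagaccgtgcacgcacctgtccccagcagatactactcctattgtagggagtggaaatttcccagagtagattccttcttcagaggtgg
Intergenic, chr22:11212404-11212616: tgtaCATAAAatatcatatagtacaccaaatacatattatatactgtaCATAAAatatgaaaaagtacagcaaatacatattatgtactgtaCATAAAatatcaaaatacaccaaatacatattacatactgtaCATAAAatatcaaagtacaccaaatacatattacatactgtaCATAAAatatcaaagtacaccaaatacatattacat
Upstream of VIL1, chr2:218417798-218417948: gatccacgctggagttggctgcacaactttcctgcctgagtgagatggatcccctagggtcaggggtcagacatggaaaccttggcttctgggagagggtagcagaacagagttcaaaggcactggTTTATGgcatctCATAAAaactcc
The first 2 hold no match to the core, and the third, a run of repeated units, holds 5 matches. The VIL1 region holds 2, one on each strand. Over all regions in the table, 15.4% hold at least 1 match.

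Among the higher regions, the one over the start of DECR1, a mitochondrial enzyme of fatty acid oxidation, was at chr8:90001255-90001508. It held 21, 38 and 15 counts in CDX1 and 3, 12 and 2 in EV libraries, which is 18.8 ± 1.28 against 4.86 ± 2.97 scaled CPM (mean ± SD, n = 3). Its log2 fold change was 1.78 (95% interval 0.90 to 2.67; unadjusted p = 0.0001, adjusted p = 0.432). All 3 CDX1 libraries lay above all 3 EV libraries. The region at the start of PLK4, a kinase of centriole duplication, at chr4:127881265-127881468, held 14, 39 and 11 counts against 2, 6 and 5. Its log2 fold change was 1.81 (0.84 to 2.78; adjusted p = 0.915). The region 1813 bp from the start of DCDC2, a doublecortin-domain protein of cilia and microtubules, held 16, 31 and 13 counts against 6, 5 and 4, a log2 fold change of 1.57 (0.63 to 2.50). The last 3 were an intron of VTI1A, a SNARE of vesicle traffic, and the starts of TMEM161B and ANKMY2, with log2 fold changes of 1.40, 1.42 and 1.57. Of these 6 regions, 1 held a CDX core, the one in VTI1A, and 4 lay on an exon at most 34 bp from a start site.

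Among the lower regions, an intron of LINC02763, a long non-coding RNA, held 2, 23 and 7 counts in CDX1 and 15, 33 and 12 in EV libraries, a log2 fold change of -1.34 (-2.20 to -0.48; adjusted p = 1). The intergenic repeat on chromosome 22 held 16, 12 and 15 counts against 34, 34 and 16, a log2 fold change of -1.22 (-2.01 to -0.43), and reads in such a repeat can come from other copies. The start of RRAS, a small GTPase related to RAS, at chr19:49640134-49640613, held 17, 31 and 8 counts against 35, 36 and 19, a log2 fold change of -1.13 (-1.90 to -0.37). Introns of ERICH1 and MAGEB10 and the start of the non-coding PRECSIT had log2 fold changes of -1.12, -1.34 and -1.26. None of the 12 regions had an adjusted p under 0.05. Single libraries moved some values, with ANKMY2 at 2.66 without EV replicate 1, DECR1 at 2.53 without EV replicate 2 and LINC02763 at -2.001 without CDX1 replicate 2. With a GC offset the repeat on chromosome 22 was at -0.62.

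**Figure D3:**
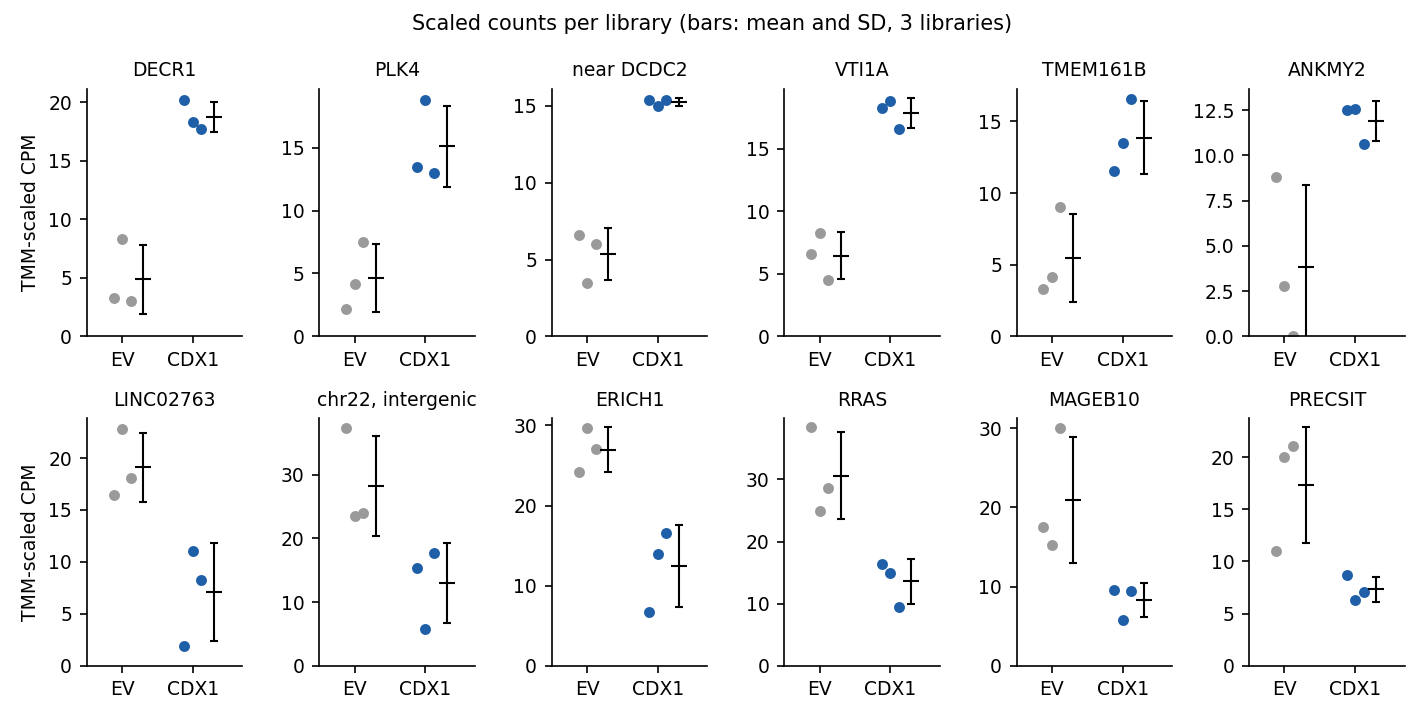
TMM-scaled CPM of the 12 regions in each of the 3 EV (grey) and 3 CDX1 (blue) libraries, with mean and SD in black and every axis starting at 0. The lines do not overlap in any panel, which was a condition of the choice; DECR1 stands at 18.8 against 4.86 CPM on average and LINC02763 at 7.10 against 19.1.

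In EHF+CDX1 against EHF, a comparison that also adds CDX1 and shares no library with CDX1 against EV, the sign was the same at 1 of the 6 higher and 5 of the 6 lower regions. The log2 fold change there was 0.39 at DECR1, -0.12 at PLK4, -0.23 near DCDC2, -0.34 in VTI1A, -0.67 at TMEM161B and -0.23 at ANKMY2. It was -0.95 in LINC02763, -0.87 in MAGEB10, -0.35 in ERICH1, -0.19 at the repeat on chromosome 22, -0.09 at PRECSIT and 0.04 at RRAS. EHF cells, which have no introduced CDX1, stood above EV cells at all 6 higher regions, by 0.81 to 1.65 on the log2 scale. They stood below EV cells at all 6 lower regions, with log2 fold changes of -0.99 to -0.34. That comparison shares the EV libraries.

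The 3 regions of smallest p held fewer counts and are named after their values were seen. An intron of GNA14, a G-protein alpha subunit, at chr9:77433768-77433928, held 0, 3 and 1 counts in CDX1 and 4, 19 and 8 in EV libraries (log2 fold change -3.24, -4.72 to -1.76; unadjusted p = 2.76e-05, adjusted p = 0.256). An intergenic region at chr7:119176106-119176261 held 4, 17 and 2 counts in CDX1 and none in EV libraries, which is at least 1.46-fold higher against a floor of 3 counts per library. An intron of CPQ, a secreted peptidase, at chr8:97120406-97120556, held 19, 4 and 9 counts in CDX1 and 1, 0 and 0 in EV libraries. This CPQ region was called higher when the 6 CDX1 and EV libraries were fitted alone (edgeR, adjusted p = 0.0238). GNA14 was also the gene of smallest p in the gene sums (log2 fold change -3.30, adjusted p = 0.221). Its sum holds only that 1 intron region, so these are the same counts and not a second line of evidence. GNA14 was called in 2 alternative fits of the gene sums, that of the 6 libraries alone (adjusted p = 0.0403) and that without EV replicate 1 (adjusted p = 0.0387).

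Of the other genes of smallest p in the sums, DECR1 (log2 fold change 1.21), WWTR1, a transcriptional co-activator of the Hippo pathway (1.91), and SPON1, a secreted matrix protein (3.72), were higher. WWTR1 held 14, 25 and 9 counts in CDX1 and 1, 4 and 4 in EV libraries. SPON1 held 9, 7 and 5 counts against 0, 0 and 1. PAM16, a part of the mitochondrial import motor (-2.27), and MAGEB10, a cancer-testis gene (-1.41), were lower. PAM16 held 1, 6 and 1 counts against 13, 7 and 7. The sums of WWTR1, SPON1, PAM16 and MAGEB10 each hold only 1 region, and that of DECR1 holds 2. All of these genes had an adjusted p of 0.999.

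At the differentiation and stem cell markers chosen by the study, no change was called. Of 12 genes, 8 had a region within 5 kb of a start site, with 17 regions in all, while no region lay near KRT20, OLFM4, ISX or LGR5. None of the 17 regions had an unadjusted p under 0.05, and their median log2 fold change was 0.23, against 0.00 over the 29954 regions outside exons of EHF and matches to mitochondrial DNA. This list was chosen by the study on these cells. VIL1 held 5, 0 and 2 counts in CDX1 and 4, 0 and 1 in EV libraries over its 2 regions. Its log2 fold change was 0.09 with an interval of -2.17 to 2.35, which reaches a 5.11-fold increase at this depth. CDX2, the paralogue of CDX1, held 16, 7 and 5 counts against 5, 6 and 2 (log2 fold change 0.73, -0.40 to 1.86). CDH17 held 5, 15 and 11 counts against 1, 11 and 3 (0.66, -0.42 to 1.74).

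ASCL2, a stem cell marker, held 2, 2 and 2 counts in CDX1 and 2, 1 and 1 in EV libraries. Its upper bound was 5.07-fold. For the remaining markers the upper bounds were lower. ELF3, an epithelial ETS factor, held 24, 30 and 14 counts in CDX1 and 11, 13 and 18 in EV libraries over 5 regions, a log2 fold change of 0.20 (-0.51 to 0.92), an upper bound of 1.89-fold. For GATA6, a factor of gut endoderm, the upper bound was 1.71-fold (log2 fold change -0.14), for GPA33, a colonic surface antigen, 1.93-fold (-0.25, with an interval down to -1.45), and for SOX9, a factor of crypt cells, 2.35-fold. In EHF+CDX1 against EHF, the log2 fold change was 1.25 (0.65 to 1.85) at ELF3 and 1.91 (1.06 to 2.77) at GPA33, both called there. The difference between the comparisons was not tested.

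**Figure D4:**
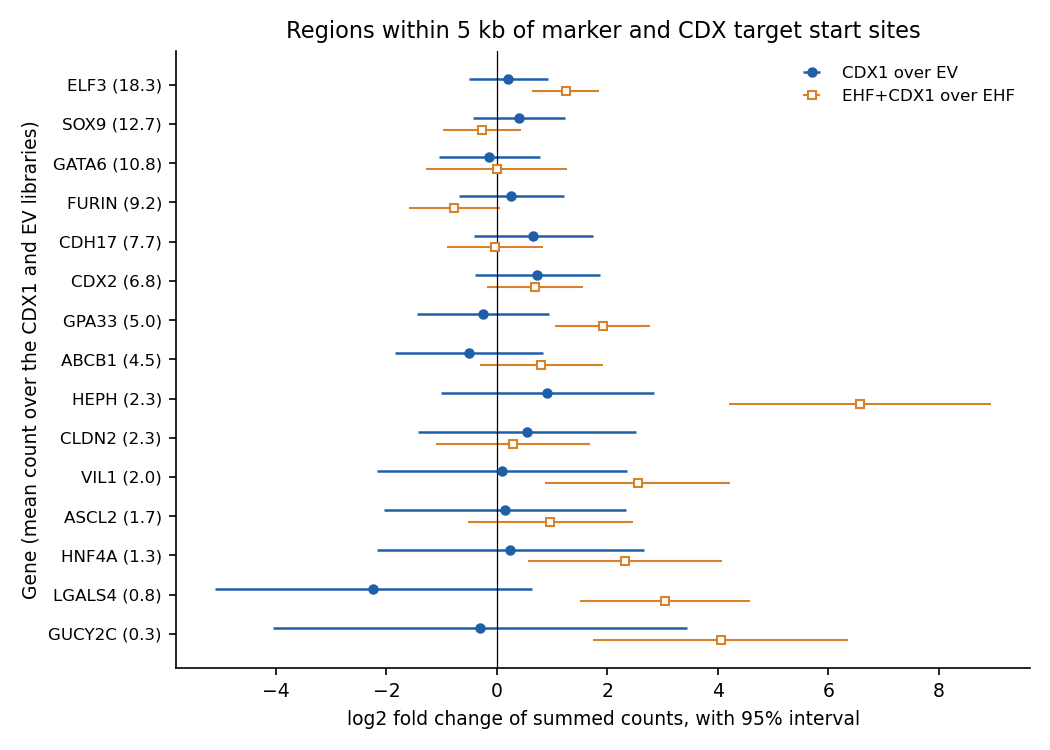
Log2 fold change with 95% interval of the counts summed within 5 kb of start sites, for CDX1 over EV (filled blue circles) and EHF+CDX1 over EHF (open orange squares), for the 15 study markers and CDX target genes with a region, ordered by mean count (in brackets). All 15 blue intervals include 0, and they widen from ELF3 (-0.51 to 0.92) to GUCY2C (-4.05 to 3.45), which held 2 counts in all.

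Other gene groups were described in the same way. At an unadjusted p under 0.05, 1.95% of all regions tested were higher and 1.85% lower. The counts in the lists that follow are to be read beside these shares. Of 23 reported targets of CDX proteins, 9 had a region, and 0 of their 12 regions had an unadjusted p under 0.05. The best covered, in an intron of FURIN, a proprotein convertase, held 9, 17 and 8 counts against 4, 12 and 5. SI, LCT, ALPI and MUC2 were among the 14 without a region. Of 30 brush border and enterocyte genes 9 had a region, with 22 regions and a median log2 fold change of 0.00. One of these regions had an unadjusted p under 0.05, near CDHR2, a brush border protocadherin, at the start of its neighbour RNF44 (12, 21 and 16 counts against 5, 11 and 2; log2 fold change 1.16, adjusted p = 1). CA2, a carbonic anhydrase of surface colonocytes, held the best covered region of this group, and the interval of its gene sum reached a 1.49-fold increase and a 1.54-fold decrease. For EPS8, an actin regulator of microvilli, the interval reached a 1.17-fold increase and a 1.99-fold decrease (log2 fold change -0.39).

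Of 25 intestinal transcription factors 20 had a region, with 40 regions and a median log2 fold change of 0.23. The 1 region with an unadjusted p under 0.05 lay at the start of HES1, a Notch target (13, 18 and 18 counts against 7, 9 and 5; 0.92). ONECUT2 held the region of highest mean count (12, 35 and 15 counts against 9, 34 and 7), with an interval of -0.73 to 0.72. HNF4G, a nuclear receptor of enterocytes, had a gene sum of 14, 25 and 7 counts against 3, 12 and 5 (0.73, -0.14 to 1.61). Of the 39 HOX genes, which share body-axis regulation with CDX genes, 21 had a region. Of their 20 regions, 1 was higher at an unadjusted p under 0.05, near HOXA3 on HOXA-AS2 (8, 16 and 4 counts against 3, 3 and 0), and 1 was lower, in HOXD3 (2, 3 and 0 counts against 7, 5 and 4). Neighbouring HOX genes share regions.

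The Wnt and stem cell list had 15 of 24 genes with a region and a median log2 fold change of -0.09 over 26 regions. Its 1 region with an unadjusted p under 0.05 lay 25 bp from the start of MYC, a proliferation factor, and overlaps CASC11 (10, 15 and 14 counts against 6, 6 and 0; 1.42). The MYC sum over 7 regions was 0.32 (-0.23 to 0.88). The interval of LRIG1, a stem cell regulator, reached 1.38-fold above and 1.72-fold below, and that of APC, the Wnt suppressor, 1.07-fold above and 2.10-fold below. Of 13 secretory genes, 2 had a region, DLL1 (20, 38 and 15 counts against 16, 20 and 12) and AGR2. Of 29 genes of the interferon response and viral sensing, 16 had a region and 0 of 24 regions had an unadjusted p under 0.05. ISG20 held the best covered of them (16, 42 and 12 counts against 8, 39 and 6; 0.08). Of 79 ribosomal protein genes, a reference group, 65 had a region. Of their 85 regions, 2 were higher (near RPL4 and RPL22) and 2 lower (at RPS19 and RPL7) at an unadjusted p under 0.05, and the median was 0.05. The shares over all regions tested were 1.95% higher and 1.85% lower. Among epithelial markers, 1 of 23 regions had an unadjusted p under 0.05, near KRT19 at KRT15 (2, 11 and 6 counts against 2, 0 and 2; 1.73). None of the 7 regions near markers of other cells did, the best covered being at COL1A1.

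By place, counts in CDX1 cells leaned towards start sites when set against EV cells, and so did those of EHF cells. Regions within 1 kb of a start site took 50.6% ± 2.77 of the counts in CDX1 and 45.9% ± 1.26 in EV libraries, with exons of CDX1 and EHF and matches to mitochondrial DNA left out (mean ± SD, n = 3). The lowest CDX1 library was at 48.2% and the highest EV library at 47.2%, so the lines did not overlap, and the exact permutation test gave p = 0.1, the smallest possible. Every library of EHF cells, which have no introduced CDX1, also lay above every EV library (50.1%, 53.8% and 54.8%). The same held for EHF+CDX1 cells (49.6%, 48.5% and 54.8%). With all regions in the total the difference turned to -3.48 percentage points. The median log2 fold change was 0.05 within 1 kb of a start site and -0.28 for the 1322 regions over 100 kb away. It moved from -0.09 in the quintile of regions poorest in G and C bases to 0.10 in the richest quintile. The mean GC content of the counted regions was 55.7% ± 1.34 in CDX1 and 54.0% ± 0.822 in EV libraries (exact permutation p = 0.2). With a GC offset per library, and outside EHF exons and matches to mitochondrial DNA, the median was 0.02 within 1 kb of a start site and 0.00 farther away, against 0.06 and -0.06 without the offset. Of the 189 tested matches to mitochondrial DNA, 180 were below 0. At an unadjusted p under 0.05, 17 of them (8.99%) were lower, against 1.85% of all regions tested.

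Away from start sites, regions with and without a CDX core were counted separately. Among 16104 regions over 1 kb from a start site and outside exons of EHF and matches to mitochondrial DNA, 3633 held TTTATG or TTTATT on either strand. Of these, 117 were higher at an unadjusted p under 0.05 (3.22%) and 84 lower (2.31%). Of the 12471 regions without the core, 193 were higher (1.55%) and 310 lower (2.49%). The median log2 fold change was 0.03 with and -0.09 without the core. In the quintile poorest in GC, 4.20% of 1501 regions with the core and 1.51% of 1720 without it were higher. From there to the second poorest quintile the shares became 3.30% of 1001 and 1.53% of 2221. They were 1.97% and 2.02% in the middle quintile and 1.39% and 1.60% in the next richer one. The richest quintile, with only 110 regions that hold the core, had 2.73% and 1.09%. Regions with the core held fewer counts (median of mean counts 2.67 against 4.33), and 6.80% of them had no count in any EV library, against 3.69% of those without. These differences in depth were not tested as a source.

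The share that was higher was larger in regions with the core in all 12 fits in which it was counted. Fits in which it was not counted include scaling to the library total and limma on the deposited log2 CPM. With a GC offset per library it was 4.98% against 2.08%, and over the 6 fits that left out 1 CDX1 or EV library it ran from 2.70% to 4.21% with the core and from 1.32% to 2.76% without it. The balance of directions within regions with the core was less steady, with 100 higher and 95 lower without CDX1 replicate 1. In EHF against EV, which shares the EV libraries but has no introduced CDX1, the shares were 1.95% and 2.01%. In EHF+CDX1 against EHF they were 30.6% and 16.8%. The peaks of all samples were merged, and a CPM of 3 in 1 library kept a region. A region could thus enter through the EHF+CDX1 libraries alone, so these last 2 shares are not separate support. All shares here count regions by an unadjusted p, and none passed the adjusted threshold in CDX1 against EV. Regions are not replicates, so no test is attached to these shares.

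**Figure D5:**
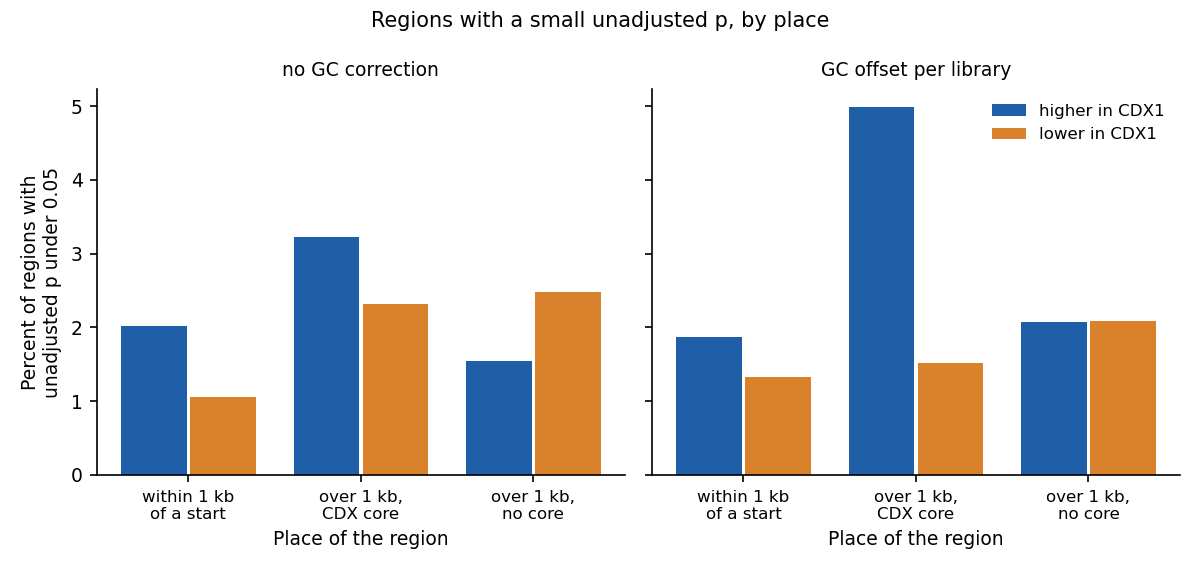
Percent of regions with an unadjusted p under 0.05 that were higher (blue) or lower (orange) in CDX1 than in EV cells, by place, without a GC correction (left) and with a GC offset per library (right). Regions over 1 kb from a start site that hold a CDX core have the tallest blue bars, 3.22% and 4.98%, against 1.55% and 2.08% without the core.

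Along the chromosomes, the share of counts per chromosome differed little. Apart from chromosome Y, the mean log2 ratio of CDX1 over EV shares ran from -0.13 to 0.15 over the chromosomes. Of 24 chromosomes, 1 did not overlap between the lines, chromosome 3 (8.66% ± 0.507 in CDX1, 9.46% ± 0.377 in EV; exact permutation p = 0.1, the smallest possible, with 24 chromosomes compared).

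Among the 1 Mb bins, the smallest p fell on chromosome 13 from 73 to 74 Mb, which holds KLF5, a Krüppel-like factor of proliferating intestinal epithelium. The bin held 76, 171 and 64 counts in CDX1 and 32, 66 and 24 in EV libraries, a log2 fold change of 0.93 (0.44 to 1.42; unadjusted p = 0.000688, adjusted p = 0.995). Of its 21 regions 18 were above 0, against 49.9% of all regions tested. The bin was chosen for the p of this sum, so the lean of its regions is not separate evidence. Above 0 were 13 of the 21 in EHF against EV and 19 in EHF+CDX1 against EHF. An unadjusted p under 0.05 was found at 2 of them, an intron of LINC00393 at chr13:73465772-73465922 (7, 9 and 7 counts against 2, 2 and 0) and an intergenic region at chr13:73090517-73090747 (13, 32 and 8 counts against 3, 10 and 5). The start of KLF5 at chr13:73058758-73059029 held 17, 42 and 14 counts against 15, 17 and 6 (0.52). The 6 nearest bins on the chromosome had log2 fold changes of -0.13 to 0.34. In EHF+CDX1 against EHF the bin stood at 0.99 (adjusted p = 0.00578), where the median of all bins of chromosome 13 was 0.66, and in EHF against EV at 0.55. Of the 45 higher bins with an unadjusted p under 0.05, the next by p were on chromosome 4 from 127 to 128 Mb, which holds PLK4 (0.64), and on chromosome 5 from 92 to 93 Mb (1.79). Of the 30 lower bins, the 3 of smallest p were on chromosome 1 from 152 to 153 Mb, at S100A11 (-0.79), on chromosome 4 from 5 to 6 Mb, at EVC (-1.15), and on chromosome 9 from 86 to 87 Mb, at GOLM1 and GAS1 (-0.56).

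Finally, the direction of change with CDX1 alone was set beside that of CDX1 added to EHF cells. Of the 1147 regions with an unadjusted p under 0.05 in CDX1 against EV, 602 (52.5%) had the same sign in EHF+CDX1 against EHF, against 49.9% of all regions tested. For the 589 higher regions the share was 58.6%, against 54.1% of all regions above 0, and 43 of them (7.30%) were called higher there, against 3.52% of those 15048 regions. For the 558 lower regions it was 46.1%, the same as for all regions below 0, and 1 was called lower there, while 36 (6.45%) were called higher, against 3.64% of all regions below 0. Seen from the other side, the 1097 regions called higher in EHF+CDX1 against EHF, with a median log2 fold change of 4.09, had a median of 0.00 in CDX1 against EV (quartiles -0.95 and 1.02), and 529 (48.2%) were above 0. These regions held a median of 0.833 mean counts in the CDX1 and EV libraries, so their limits were wide. A 4-fold increase lay outside the interval of 302 of them (27.5%). At 724 (66.0%) the interval left out the log2 fold change estimated in EHF+CDX1 against EHF. That estimate has its own error and was the basis of the choice, and the difference between the comparisons was not tested. The 211 regions called lower in EHF+CDX1 against EHF had a median of 0.00 with CDX1 alone, and at 203 (96.2%) the interval left out the estimate of that comparison. The lines of the second comparison were themselves selected separately, and EHF+CDX1 replicate 2 held 77147 counts on CDX1 exons against 545352 and 310557 in the other 2 libraries.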

How the data were processed

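ATAC-seq was measured in 12 libraries of 4 HCT116 lines, of which 3 CDX1 and 3 EV libraries are compared here. Alignment to hg38 used Subread 2.0.0 with unique reads retained, and HOMER 4.7 found the peaks. The peaks of all samples were merged into 1 set of regions, and featureCounts 2.0.0 counted reads in them. These steps are given in the study's methods and the submitters' processing notes. Read shifting and duplicate removal are not given in the sources used here. The table the authors deposited holds raw counts for 30170 regions of 150 to 761 bp. The deposited log2 CPM values, which the authors computed per library, served in 1 alternative.

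Counts were tested in R 4.3.3 with edgeR 4.0.16 (TMM, robust quasi-likelihood fit, two-sided, threshold 0.05), leaving out regions below a CPM of 3 throughout, and all 12 libraries entered 1 fit. The 95% interval was the log2 fold change ± t times its standard error. Regions were annotated with GENCODE 44. Mitochondrial matches (193 regions, 40 bp or more at 80% identity or more) were found with blastn 2.17.0. The floor was 3 counts. Intervals and floors cover counting error and library spread only as far as 3 libraries show it, and amplified reads are not independent molecules. Named are the 6 regions in each direction with the smallest unadjusted p, a mean of at least 10 counts and no overlap, the 3 genes and 3 bins of smallest unadjusted p in each direction, the study's markers, members of fixed gene lists with an unadjusted p under 0.05, and the best covered region of each list; exceptions are named as such. Members and lists were chosen with earlier results of these data known. Alternatives used other scaling, filters, libraries, DESeq2 1.42.0, limma 3.58.1, a GC offset, a replicate block and leave-outs.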

Additional observations from a re-analysis of the deposited data

How the results depend on the processing

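The count of 0 called regions stayed at 0 with DESeq2, without a filter, with at least 10 counts in at least 3 libraries, with TMM on the other regions, with a GC offset, without the robust option and in the 6 leave-one-out fits. It became 3 with library size alone (3 EHF exons, lower, with a median log2 fold change of -0.65 and 15 higher against 917 lower regions at an unadjusted p under 0.05, where TMM gave 589 and 558), 2 with the 6 libraries alone (the CPQ intron, higher, and a mitochondrial match, lower), 1 with quantile-normalised voom, the scaling in the study's methods (a mitochondrial match, lower), and 2 with limma-trend on the deposited log2 CPM (2 EHF exons, lower, with a median of -0.89 and 4 higher against 2085 lower). DESeq2 gave 677 regions at an unadjusted p under 0.05. With a replicate block the calls became 3 regions (2 mitochondrial matches and the GNA14 intron, all lower), 1 region with the block and a GC offset, 0 genes and 5 bins (higher on chromosome 13 from 73 Mb, adjusted p = 0.0279 with edgeR; lower on chromosome 16 from 36 Mb, 20 from 26 Mb, 6 from 59 Mb and X from 58 Mb). Same-numbered CDX1 and EV libraries deviated together with correlations of 0.126, 0.319 and 0.0916, each the best match of its CDX1 library; the last is under 0.1, so the numbers were not taken to pair the samples. With the replicate block, 134 distal regions with a CDX core were higher and 145 lower at an unadjusted p under 0.05.

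Gene calls were 1 (GNA14) with the 6 libraries alone, and 0 to 1 over the leave-one-out fits, with 1 without EV replicate 1. Bin calls were 0 in every leave-one-out fit and with bins of 5 Mb. The count of intervals within 2-fold was 11 with library size alone, 2701 with the replicate block, and 512 (without EV replicate 2) to 857 (without EV replicate 3) over the leave-one-out fits, which hold fewer libraries. It was 1466 with a standard error from the fitted weights, an alternative chosen after seeing the data, which is steadier where the change is near 0. The same-sign share in EHF+CDX1 against EHF was 22.3% with library size alone, 60.8% at an unadjusted p under 0.01, and 43.5% to 62.6% over the leave-one-out fits. The difference in the share of counts near start sites was 4.97 points at 5 kb, turned to -3.48 with all regions in the total, and ran from 3.21 to 5.94 over the leave-one-out values. The mitochondrial difference was -5.87 points, -40.1 with CDX1 and EHF exons in the total, and ran from -8.14 to -2.76. Except where the construction shows it, the cause was not tested. Regions under 5 counts, most distal regions among them, limit what could be seen.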
